A study of Rattus norvegicus with 93 samples.

Results

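Topotecan and oxaliplatin were given to rats one after the other in both orders, and the bone marrow transcript levels at 1 h were compared between the orders. The comparison is a difference of differences: the change in topotecan/oxaliplatin rats against their vehicle group NaCl/D5W, minus the change in oxaliplatin/topotecan rats against their vehicle group D5W/NaCl. It rests on 16 of the 93 arrays of the series, 4 rats in each of these 4 groups, 1 array per rat. All were male Sprague-Dawley rats of 8 weeks with a cannula in the femoral vein. The first infusion lasted 30 min, and after a gap of 30 min a second infusion of 30 min followed. Topotecan was given at 4.7 mg/kg in NaCl (saline), oxaliplatin at 15 mg/kg in D5W (dextrose in water), and femur bone marrow was taken 1 h after dosing ended. The name of a group gives the infusions in the order in which they were given, and the vehicle rats received both fluids without a drug. At sampling the drug given first had therefore been in the rat for 60 min longer than the drug given second, so the order of the drugs and the time since each infusion cannot be told apart. The sample codes carry a numbered column: 2 rats of each combination came from column 2 and 2 from column 4. In each vehicle group 2 rats came from column 1 and 2 from column 3, so both orders were spread alike over the columns. Combination and vehicle rats shared no column, so in every change against vehicle below, drug and code column cannot be told apart. Single rats are named below by the animal number in their labels.

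Topotecan holds topoisomerase I on DNA in a cleaved state, which blocks both replication forks and the RNA polymerase that moves along a gene. The drug binds reversibly, and a polymerase needs more time to cross a long gene than a short one. Oxaliplatin forms platinum adducts on DNA that persist. Bone marrow holds dividing erythroid and granulocyte precursors beside B lymphocytes and their precursors. The paper reports loss of marrow cells after either drug, seen later after oxaliplatin than after topotecan.

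Transcript levels were read on Affymetrix rat expression arrays as log2 signals of 12532 probe sets, each a group of probes for 1 transcript. The 16 arrays had median log2 signals between 8.79 and 9.22, with 8.92 to 9.00 in topotecan/oxaliplatin rats, 8.79 to 8.97 in oxaliplatin/topotecan rats, 9.10 to 9.22 in NaCl/D5W rats and 8.99 to 9.16 in D5W/NaCl rats. Arrays of 1 group correlated with each other at 0.971 to 0.993 over all probe sets, and no pair of arrays held equal values. For the label bone marrow, 21 erythroid markers were measured, and the log2 of their summed signal lay between 17.46 and 17.65 on all 16 arrays. Levels of different probe sets are not on a common scale, so the level of one list was not set against that of another. The number of arrays limits the precision of every value below, and p-values measure the spread between single rats.

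The orders differed in 190 probe sets at 1 h, and 144 of them were higher and 46 lower in topotecan/oxaliplatin rats. A probe set is counted, here and below, as called when its adjusted p in the limma model is under 0.01 and its difference is over 2-fold, that is, over 1 on the log2 scale. The 190 are 1.52% of the probe sets tested, 1.15% higher and 0.367% lower. With no minimum fold, 1234 probe sets passed (638 higher and 596 lower), and the median difference over all probe sets was -0.01. In 140 of the 144 and in 46 of the 46 the topotecan/oxaliplatin rats did not overlap the oxaliplatin/topotecan rats after each rat's own vehicle mean was subtracted, against 29.2% of all probe sets. At the border of the fold, Rpap2 with a log2 difference of 1.001 was called while Abcg1 with 0.99989 was not.

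Most of the called probe sets had fallen in one order and had fallen less, or were not called, in the other. Against their own vehicle group, topotecan/oxaliplatin rats had 803 called probe sets (174 higher, 1.39%, and 629 lower, 5.02%), and oxaliplatin/topotecan rats 986 (179 higher, 1.43%, and 807 lower, 6.44%). Of the 144 probe sets that were higher when topotecan came first, 96 had fallen in oxaliplatin/topotecan rats and were not called in topotecan/oxaliplatin rats. A further 9 had fallen in both, 11 had risen in topotecan/oxaliplatin rats alone, 1 had risen in both and 27 were called in neither. Their median change was -0.24 in topotecan/oxaliplatin rats and -1.43 in oxaliplatin/topotecan rats. The 46 lower ones had the opposite form. Among them, 31 had fallen in topotecan/oxaliplatin rats and were not called in oxaliplatin/topotecan rats, 6 had fallen in both, 1 had risen in oxaliplatin/topotecan rats alone and 8 were called in neither, with median changes of -1.70 in topotecan/oxaliplatin rats and -0.51 in oxaliplatin/topotecan rats.

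**Figure D1:**
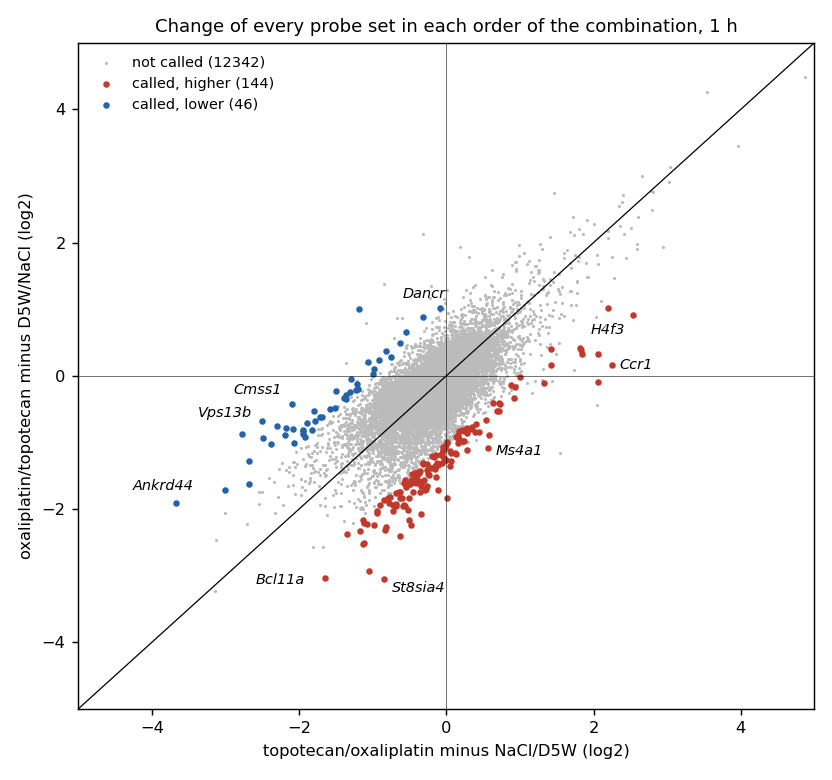
Change of each of the 12532 probe sets in topotecan/oxaliplatin rats (x axis, log2 difference from NaCl/D5W) and in oxaliplatin/topotecan rats (y axis, log2 difference from D5W/NaCl) at 1 h, with 4 rats in each group. The 144 probe sets called higher (red) lie below the diagonal of equal change, mostly where the y value is under -1, and the 46 called lower (blue) lie above it, mostly where the x value is under -1.

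St8sia4, which encodes a sialyltransferase that builds polysialic acid on cell surface proteins, had the largest difference among the genes called higher. Its log2 signal was 7.80, 8.13, 8.58 and 8.57 in topotecan/oxaliplatin rats and 6.05, 5.96, 5.94 and 6.37 in oxaliplatin/topotecan rats, against 8.76, 9.19, 9.35 and 9.16 in NaCl/D5W rats and 9.10, 9.18, 9.11 and 9.13 in D5W/NaCl rats. Every combination rat lay below every vehicle rat, and the oxaliplatin/topotecan rats were lower still, with no overlap. The difference between the orders was 2.20 ± 0.27 on the log2 scale (SE, adjusted p = 3.47e-09 in limma), or 4.61-fold. A second probe set of St8sia4 gave 0.78 (adjusted p = 0.00956), under the fold needed for a call.

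Regulators of transcription and RNA turnover were among the genes lower in oxaliplatin/topotecan rats. Arid4b, a part of the SIN3 corepressor complex, had log2 signals of 7.92, 8.63, 8.47 and 8.57 in topotecan/oxaliplatin rats and of 6.64, 6.25, 7.42 and 6.76 in oxaliplatin/topotecan rats. Vehicle rats lay between 8.71 and 9.12, and the difference between the orders was 1.66 ± 0.20 (SE, adjusted p = 6.51e-09 in limma). Tut4, which adds uridines to the ends of RNA, differed by 1.74 ± 0.23. Tle4, a corepressor of the Groucho family, differed by 1.47 ± 0.16. Ets1, a transcription factor of lymphocytes, differed by 1.42 ± 0.18, and Kansl1, a scaffold of a histone acetyltransferase complex, by 1.40 ± 0.14. Cdk17, a cyclin-dependent kinase, and Cnot6l, a deadenylase of the CCR4-NOT complex, differed by 1.41 ± 0.17 and 1.40 ± 0.26. Bcl11a, a transcription factor needed for B cell development, had fallen in both orders, with changes of -1.65 in topotecan/oxaliplatin rats and -3.03 in oxaliplatin/topotecan rats, but its second probe set gave a difference of 0.18 (adjusted p = 0.613). Marchf1, a ubiquitin ligase that removes MHC class II from the cell surface, differed by 1.44 ± 0.23, and by 1.76 on its second probe set.

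A smaller group had risen when topotecan came first. Ccr1, a chemokine receptor of myeloid cells, had log2 signals of 10.52, 10.40, 10.99 and 11.05 in topotecan/oxaliplatin rats and of 8.64, 9.05, 8.99 and 9.42 in oxaliplatin/topotecan rats. The 8 vehicle rats lay between 7.92 and 9.20, so that the oxaliplatin/topotecan rats overlapped their vehicle group and the topotecan/oxaliplatin rats lay above all others. The difference between the orders was 2.10 ± 0.31 (SE, adjusted p = 5.45e-07 in limma). Mal, a membrane proteolipid, had a difference of 1.44 ± 0.35 (adjusted p = 0.00186), and NaCl/D5W minus D5W/NaCl was -0.74 in the vehicle rats alone. In the direct comparison of the combinations Mal differed by 0.70 and was not called.

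A group of histone genes was higher when topotecan came first and close to its vehicle level when topotecan came second. Of 14 measured histone genes, 4 were higher at an adjusted p under 0.01 (3 of them over 2-fold) and 0 lower, with a median difference of 0.41. Over all 7810 genes with a symbol, read from the brightest probe set where a gene had several, 4.99% were higher and 6.02% lower at that adjusted p, with a median of -0.04. H4f3 is a histone gene by its symbol, which was not taken to give the type of histone. It had log2 signals of 9.04, 9.08, 9.40 and 8.99 in topotecan/oxaliplatin rats and of 7.11, 7.00, 7.96 and 7.18 in oxaliplatin/topotecan rats. Vehicle rats lay at 6.94, 7.50, 6.63 and 7.19 in NaCl/D5W and at 6.98, 6.86, 6.89 and 7.23 in D5W/NaCl, so the topotecan/oxaliplatin rats stood apart from the other 12. Its difference between the orders was 1.74 ± 0.38 (SE, adjusted p = 0.000627 in limma). H2ac25, a core histone H2A, differed by 1.51 ± 0.28, with log2 signals of 9.66 to 10.23 in topotecan/oxaliplatin rats and 8.50 to 9.12 in oxaliplatin/topotecan rats. H1f2, a linker histone, differed by 1.25 ± 0.21, with 13.11 to 13.28 in topotecan/oxaliplatin rats and 12.23 to 12.37 in oxaliplatin/topotecan rats. H1f10, another linker histone, passed at 0.95 ± 0.25 (adjusted p = 0.00472). H2az1 and H2aj, whose genes are used outside S phase as well, gave -0.11 ± 0.07 and 0.01 ± 0.09. Most transcripts of the replication-dependent histone genes end without a poly(A) tail, whereas the labelling was primed with oligo-d(T), and near-identical copies may share probes, so levels of single histone genes are uncertain. With 2 rats in each group, 1 histone gene passed in code columns 1 and 2 and 2 in columns 3 and 4, with medians of 0.41 and 0.54.

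The promoters of the 3 histone genes over 2-fold are shown because these genes moved together. They span the start of the gene, 300 bases each, in RefSeq on build GRCr8, at chr17:41980292-41980591 (- strand), chr10:44233033-44233332 (+ strand) and chr17:41820404-41820703 (- strand), and are written along the gene's strand. Capitals mark CCAAT and TATAA and their reverse complements ATTGG and TTATA, which overlap in H2ac25.
H4f3: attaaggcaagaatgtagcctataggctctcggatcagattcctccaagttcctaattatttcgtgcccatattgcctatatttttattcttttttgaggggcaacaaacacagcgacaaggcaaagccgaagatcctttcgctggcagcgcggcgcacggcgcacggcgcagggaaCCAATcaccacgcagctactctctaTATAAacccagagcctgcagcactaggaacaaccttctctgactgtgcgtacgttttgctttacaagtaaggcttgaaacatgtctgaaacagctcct
H2ac25: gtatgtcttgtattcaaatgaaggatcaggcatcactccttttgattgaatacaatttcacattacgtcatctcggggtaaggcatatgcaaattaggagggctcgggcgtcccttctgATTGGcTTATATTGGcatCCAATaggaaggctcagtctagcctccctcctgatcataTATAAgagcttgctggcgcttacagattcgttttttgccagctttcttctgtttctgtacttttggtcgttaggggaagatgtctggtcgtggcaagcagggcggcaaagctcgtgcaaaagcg
H1f2: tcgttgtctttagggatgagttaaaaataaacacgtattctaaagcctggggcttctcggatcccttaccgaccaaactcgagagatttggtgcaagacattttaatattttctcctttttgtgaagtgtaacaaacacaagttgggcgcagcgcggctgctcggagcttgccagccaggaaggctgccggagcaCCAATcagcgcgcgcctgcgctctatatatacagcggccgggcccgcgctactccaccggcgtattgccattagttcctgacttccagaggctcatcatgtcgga
CCAAT or its reverse was found in all 3 and TATAA or its reverse in H4f3 and H2ac25, against 37.5% and 26.2% of 33469 promoters of the same length. A match describes the letters of this window and is not evidence of a bound site.

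Among the marker lists of marrow cell types, that of B cells had the most members that differed between the orders and the highest median. Of 14 measured B cell markers, 6 were higher at an adjusted p under 0.01 and over 2-fold when topotecan came first, 0 were lower, and the median difference was 0.66. Over all genes, 4.99% were higher at that adjusted p with no minimum fold. Ms4a1, which encodes the B cell surface protein CD20, had log2 signals of 10.90, 11.70, 10.66 and 11.35 in topotecan/oxaliplatin rats and of 9.54, 9.83, 9.95 and 9.18 in oxaliplatin/topotecan rats. Vehicle rats spread from 10.07 to 11.25, overlapping the topotecan/oxaliplatin rats and lying above every oxaliplatin/topotecan rat. The difference between the orders was 1.65 ± 0.32 (SE, adjusted p = 0.000102 in limma). Cd79b, a signalling chain of the B cell receptor, differed by 1.22 ± 0.27. Pou2af1, a coactivator of immunoglobulin genes, differed by 1.25 ± 0.31, and Foxp1, a forkhead factor needed by developing B cells, by 1.09 ± 0.17. Ebf1, a factor that commits precursors to the B lineage, differed by 1.01 ± 0.27 on its brightest probe set, but its other 2 probe sets gave -0.26 (adjusted p = 0.583) and -0.66 (adjusted p = 0.0914), so the probe sets of Ebf1 disagree in direction. The other 3 probe sets of Foxp1 gave 0.52, 0.85 and 1.02. Fcrla, an Fc receptor-like protein of B cells, differed by 1.07 ± 0.25. Pooling the vehicle groups cancels them and leaves the direct comparison of the combinations. There 5 of the 6 fell under 2-fold while their adjusted p stayed under 0.01: Cd79b (0.92), Pou2af1 (0.83), Foxp1 (0.84), Fcrla (0.83) and Ebf1 (0.72), and Ms4a1 (1.53) stayed called. Ebf1 lost its call without topotecan/oxaliplatin rat 50, oxaliplatin/topotecan rat 68, NaCl/D5W rat 2, 7 or 8, or D5W/NaCl rat 13 or 14, and Fcrla without topotecan/oxaliplatin rat 50 or D5W/NaCl rat 13. Bank1, a B cell scaffold protein, ran the other way at -0.51 ± 0.21 without passing (adjusted p = 0.0834).

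The log2 of the summed signal of the B cell markers was 13.83 to 14.53 in topotecan/oxaliplatin rats and 13.24 to 13.68 in oxaliplatin/topotecan rats, against 13.90 to 14.31 in NaCl/D5W rats and 14.03 to 14.50 in D5W/NaCl rats. Only the oxaliplatin/topotecan rats stood below the other 3 groups. In whole marrow, fewer cells of a type and less RNA per cell cannot be told apart. No T and NK cell marker passed (0 of 16, median -0.04), and none of the granulocyte precursor (0 of 6), mature neutrophil (0 of 8), monocyte and macrophage (0 of 15), megakaryocyte and platelet (0 of 12), mast cell, basophil and eosinophil (0 of 12), endothelial (0 of 15), osteoblast and stromal (0 of 23), adipocyte (0 of 4) or skeletal muscle markers (0 of 17) did. Mature neutrophil markers had a median of 0.43, the highest after B cells, with Cxcr2, a chemokine receptor of neutrophils, at 0.74 ± 0.26 (adjusted p = 0.0366). Without oxaliplatin/topotecan rat 67, 1 mature neutrophil marker passed, and without topotecan/oxaliplatin rat 49 or oxaliplatin/topotecan rat 68, 1 monocyte and macrophage marker did. Among dendritic cell markers 1 of 8 passed, Irf8 at 0.95 ± 0.20, and among stem and progenitor cell markers 1 of 7, Runx1 at 0.77 ± 0.16, both transcription factors that other marrow cells express as well. Without NaCl/D5W rat 8 or D5W/NaCl rat 19, 2 stem and progenitor cell markers passed, 1 higher and 1 lower. The erythroid markers had a median of 0.05 and 1 of 21 passed, Tfr2, described below (3 with the code column pair as a block). With only the rats of code columns 3 and 4 (2 rats in each group), 0 of the 14 B cell markers passed and their median was 0.39, against 5 and 1.09 in the rats of code columns 1 and 2.

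**Figure D2:**
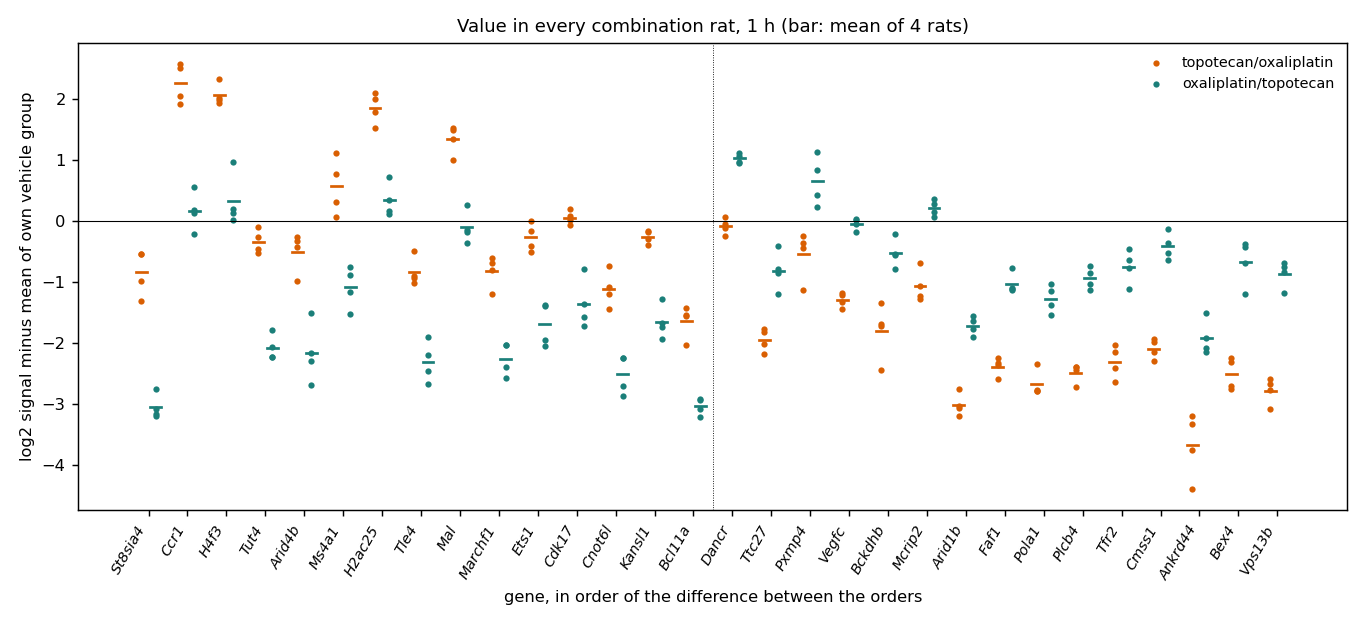
Log2 signal of 30 genes in each topotecan/oxaliplatin rat (orange, left) and each oxaliplatin/topotecan rat (green, right) at 1 h, minus the mean of the rat's own vehicle group (y axis), with the mean of 4 rats as a bar. Left of the dotted line stand the genes higher in topotecan/oxaliplatin rats and right of it those lower, and in each of the 30 the points of the 2 orders do not overlap, as the choice of these genes required.

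Very long genes were among those lower when topotecan came first. Vps13b, which encodes a large lipid transfer protein and spans 576.6 kb, had log2 signals of 5.71, 5.90, 5.81 and 5.40 in topotecan/oxaliplatin rats and of 7.36, 7.03, 7.51 and 7.46 in oxaliplatin/topotecan rats, against 8.11 to 8.76 in NaCl/D5W rats and 7.97 to 8.44 in D5W/NaCl rats. The topotecan/oxaliplatin rats were the lowest 4 of the 16, and the difference between the orders was -1.91 ± 0.21 (SE, adjusted p = 8.04e-11 in limma). Ankrd44, a regulatory subunit of protein phosphatase 6 that spans 300.8 kb, was at 6.70, 7.26, 6.06 and 7.12 in topotecan/oxaliplatin rats and at 8.24, 8.18, 8.41 and 8.82 in oxaliplatin/topotecan rats, against 10.21 to 10.56 in vehicle rats. Its change was -3.67 in topotecan/oxaliplatin rats and -1.92 in oxaliplatin/topotecan rats, and the difference between the orders was -1.75 ± 0.22. None of the other 4 measured subunits of that phosphatase passed.

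Pola1, the catalytic subunit of the DNA polymerase that starts each new strand, spans 314.0 kb and was at 6.18, 6.16, 6.60 and 6.16 in topotecan/oxaliplatin rats and at 7.68, 7.52, 7.92 and 8.04 in oxaliplatin/topotecan rats, against 8.78 to 9.35 in vehicle rats. Its difference between the orders was -1.40 ± 0.22 (SE, adjusted p = 2.68e-06 in limma). Arid1b, a subunit of the SWI/SNF chromatin remodeller, differed by -1.30 ± 0.22, and its second probe set by -0.59 (adjusted p = 0.0935). Faf1, a FAS-associated adaptor, differed by -1.36 ± 0.13 and Plcb4, a phospholipase C, by -1.55 ± 0.18. Cmss1 differed by -1.67 ± 0.18, Bckdhb, a subunit of the branched-chain keto acid dehydrogenase, by -1.27 ± 0.28, and Ttc27 by -1.13 ± 0.25.

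Some genes lower when topotecan came first are short. Bex4, with 1.433 kb, was at 7.98, 8.41, 8.03 and 8.48 in topotecan/oxaliplatin rats and at 10.38, 10.34, 9.56 and 10.06 in oxaliplatin/topotecan rats, against 10.23 to 11.08 in vehicle rats. The difference between the orders was -1.83 ± 0.36 (SE, adjusted p = 0.000101 in limma). Tfr2, the transferrin receptor by which erythroid cells sense iron, was at 7.19, 6.81, 6.58 and 7.07 in topotecan/oxaliplatin rats and at 8.44, 8.31, 7.96 and 8.62 in oxaliplatin/topotecan rats, and differed by -1.56 ± 0.30. Dancr, a long noncoding RNA, was at 8.85, 9.05, 9.16 and 8.99 in topotecan/oxaliplatin rats and at 9.99, 10.00, 10.15 and 10.10 in oxaliplatin/topotecan rats, against 8.85 to 9.30 in vehicle rats. It had risen over 2-fold in oxaliplatin/topotecan rats, which lay above the other 12 rats, and differed by -1.11 ± 0.16. Named here without regard to length, Mcrip2 differed by -1.27 ± 0.19 and Vegfc, a growth factor for lymphatic vessels, by -1.24 ± 0.25.

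Pxmp4, a peroxisomal membrane protein, was called lower (-1.20 ± 0.30, adjusted p = 0.00255 in limma) mainly through the vehicle rats. Its log2 signal was 8.88, 8.00, 8.77 and 8.69 in topotecan/oxaliplatin rats and 9.10, 9.41, 8.50 and 8.69 in oxaliplatin/topotecan rats, which overlap, against 9.30, 8.76, 9.23 and 9.26 in NaCl/D5W rats and 8.66, 8.09, 8.59 and 7.76 in D5W/NaCl rats, which do not. In the direct comparison of the combinations it differed by -0.34 (adjusted p = 0.248), and its call was lost without topotecan/oxaliplatin rat 50, oxaliplatin/topotecan rat 62 or D5W/NaCl rat 20. A second, dimmer probe set of Pxmp4 gave -2.20 ± 0.50 (adjusted p = 0.000848) and was called. The vehicle rats made up more than 25% of the difference in 19 of the 144 higher and 11 of the 46 lower probe sets, and more than 50% in 2 and 3. No probe set was called between the vehicle groups themselves (0 by limma, with 709 at an unadjusted p under 0.05).

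Without the vehicle rats, the direct comparison of topotecan/oxaliplatin with oxaliplatin/topotecan called 150 probe sets, 127 higher (1.01%) and 23 lower (0.184%). Among the 144 and the 46, 95 and 18 were also called there in the same direction, in the same combination rats. After a second quantile normalization the direct comparison called 98, 69 higher and 29 lower, while the difference of differences called 166, 119 higher and 47 lower. Per the study's methods the analyses ran in 2 batches, without saying which step was batched, one holding topotecan/oxaliplatin and NaCl/D5W and the other oxaliplatin/topotecan and D5W/NaCl. A constant shift between them cancels in the difference of differences, whereas in the direct comparison batch and order cannot be told apart.

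Gene length was not used to choose any gene, and the genes called lower were longer than those called higher. Lengths are those of the whole gene in RefSeq on build GRCr8, known for 7791 genes. The 79 genes called higher had a median length of 79.3 kb and the 32 called lower one of 236.0 kb, against 24.3 kb over all genes. Over 200 kb were 17 of the 32 lower genes (53.1%) and 7 of the 79 higher ones (8.86%), against 4.13% of all genes. Genes that had fallen against vehicle were long in both orders. In topotecan/oxaliplatin rats 387 such genes had a median of 148.3 kb, with 31.3% over 200 kb. In oxaliplatin/topotecan rats 453 had a median of 110.0 kb, with 15.7% over 200 kb. Genes of 50 to 100 kb held 26 called higher and 0 called lower of 1190, those of 100 to 200 kb 22 and 5 of 731, and those of 200 to 400 kb 5 and 15 of 252. Genes under 10 kb, 1958 in number, held 10 called higher and 5 called lower. Among the 70 genes of 400 kb or more, 2 were called higher, Marchf1 with 858.7 kb and Foxp1 with 691.3 kb, and 2 lower. Genes are not independent of each other, and no test was made of these shares.

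Medians over whole length classes differed between the orders too. The median difference between the orders was -0.12 for genes under 10 kb, -0.09 for 10 to 25 kb, 0.03 for 25 to 50 kb, 0.12 for 50 to 100 kb, -0.01 for 100 to 200 kb, -0.28 for 200 to 400 kb and -0.29 for 400 kb or more. Against vehicle, the medians of single rats in the class of 200 to 400 kb were -0.91 to -0.78 in topotecan/oxaliplatin rats and -0.66 to -0.44 in oxaliplatin/topotecan rats. In the class of 400 kb or more they were -0.66 to -0.57 in topotecan/oxaliplatin rats and -0.35 to -0.19 in oxaliplatin/topotecan rats. In these 2 classes the rats of the orders did not overlap, and in the 5 shorter classes they did. The oxaliplatin/topotecan rats were lowest in the class of 100 to 200 kb, with a mean of -0.64 ± 0.11 (SD, n = 4), and the topotecan/oxaliplatin rats in the class of 200 to 400 kb, with -0.86 ± 0.06 (SD, n = 4). In the rats of code columns 1 and 2 alone the class of 50 to 100 kb gave 0.04 in place of 0.12, while that of 200 to 400 kb gave -0.30. With the vehicle groups pooled, which is the direct comparison of the combinations, the medians were -0.06 under 10 kb, -0.02 for 10 to 25 kb and -0.19 for 200 to 400 kb.

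**Figure D3:**
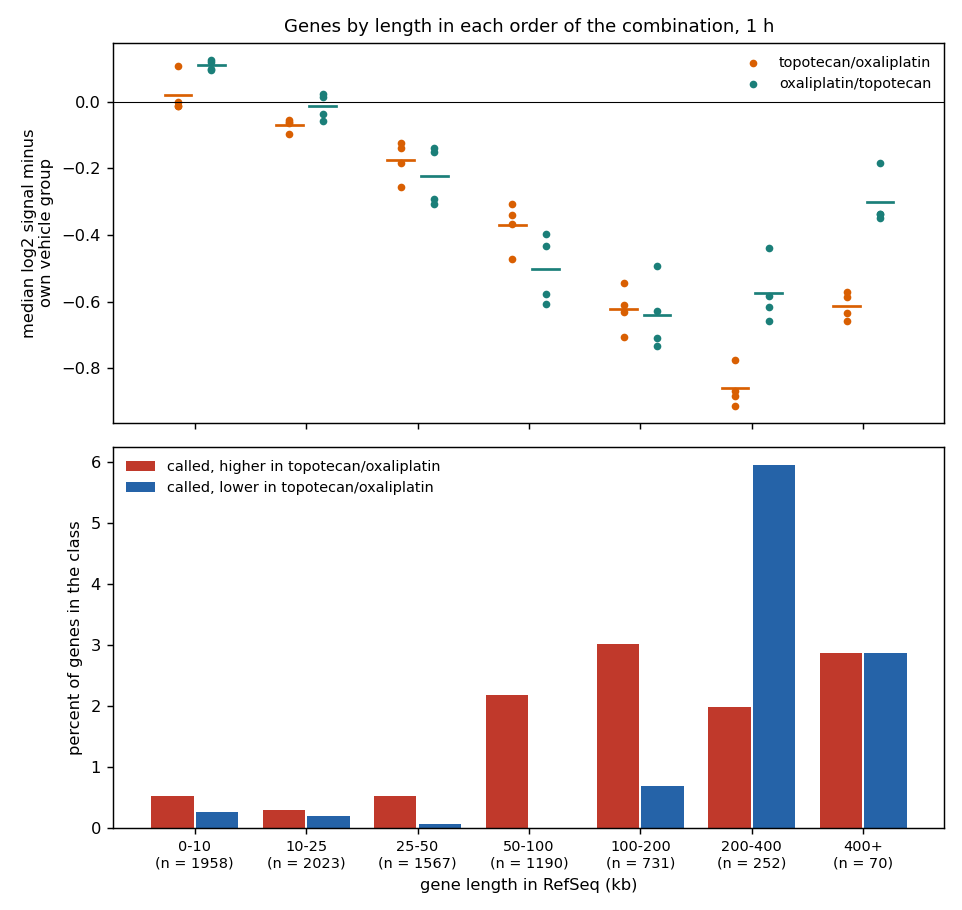
Upper panel: median log2 signal minus the own vehicle group (y axis) over the genes of each length class (x axis, kb) in each of 4 topotecan/oxaliplatin rats (orange) and 4 oxaliplatin/topotecan rats (green), with the mean as a bar. Lower panel: percent of the genes of each class called higher (red) or lower (blue) in topotecan/oxaliplatin rats, where the lower ones reach 5.95% at 200 to 400 kb and the higher ones 3.01% at 100 to 200 kb.

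Among chromatin and ubiquitin genes, more members passed higher than lower. Over all genes 4.99% were higher and 6.02% lower at an adjusted p under 0.01. The lower members of the chromatin, ubiquitin and zinc finger lists stayed under that lower share. These shares varied with gene length. Of 1190 genes of 50 to 100 kb, 159 were higher and 27 lower at that adjusted p. Of 1958 genes under 10 kb, 25 were higher and 154 lower. Whether the counts of any gene list follow the lengths of its members was not tested. Among 84 chromatin modifier genes 22 were higher and 3 lower at an adjusted p under 0.01, with a median of 0.19. Tet2, an enzyme that oxidises methylcytosine, was at 7.71, 7.70, 7.83 and 8.02 in topotecan/oxaliplatin rats and at 6.65, 6.20, 6.76 and 6.47 in oxaliplatin/topotecan rats, with vehicle rats from 7.76 to 8.38. Setd2 and Kat6a, a histone methyltransferase and an acetyltransferase, differed by 0.93 ± 0.14 and 0.97 ± 0.15. A second probe set of Kat6a gave 0.48 (adjusted p = 0.0158 in limma) and did not pass. Among 171 ubiquitin ligase and deubiquitinase genes 19 were higher and 5 lower, with Marchf3, a membrane ubiquitin ligase, at 1.39 ± 0.24 and Mycbp2, a very large ubiquitin ligase, at -1.06 ± 0.13. The second probe set of Mycbp2 gave -0.55 (adjusted p = 0.0039 in limma), and its call was lost without topotecan/oxaliplatin rat 49 (-0.95). The 3 lower chromatin genes were Arid1b, Hmgn1 and Smarcc1. With the code column pair as a block, 13 chromatin genes were higher and 2 lower. Zinc finger genes gave 7 higher and 2 lower of 85, but 4 higher and 0 lower without oxaliplatin/topotecan rat 62 and 5 higher and 0 lower without topotecan/oxaliplatin rat 55. The sialyltransferases gave 1 higher of 8, St8sia4, and 2 without oxaliplatin/topotecan rat 67.

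Mitosis genes that passed were higher and DNA replication genes that passed were lower. Over all genes 4.99% were higher and 6.02% lower at an adjusted p under 0.01. Of 51 mitosis genes 6 were higher and 0 lower, with a median of 0.21, among them Kif18a, a kinesin of the spindle, at 9.06, 9.15, 9.50 and 9.40 in topotecan/oxaliplatin rats and at 8.23, 7.90, 8.61 and 8.28 in oxaliplatin/topotecan rats, against 8.95 to 9.49 in vehicle rats. Aurka, a mitotic kinase, differed by 0.59. Of 51 DNA replication genes 0 were higher and 6 lower, with a median of -0.29: Pola1, the clamp loader subunits Rfc3 (-0.52) and Rfc4 (-0.64), the single-strand binding subunits Rpa2 (-0.46) and Rpa3 (-0.53), and Rrm1 (-0.53), the large subunit of ribonucleotide reductase. DNA repair and checkpoint genes gave 3 lower of 44, a share near the 6.02% of all genes, among them Prkdc, a kinase of DNA end joining, at -0.90 ± 0.16. With arrays centred on their medians, 10 DNA replication genes were lower, and of the repair genes 5 were lower and 1 higher. In the rats of code columns 1 and 2 alone 0 mitosis genes passed and their median was -0.01, and in those of columns 3 and 4 alone 0 DNA replication genes passed and their median was -0.05. Without single rats the count of DNA replication genes dropped to 2 (without D5W/NaCl rat 13) or 3 (without NaCl/D5W rat 1, NaCl/D5W rat 2, oxaliplatin/topotecan rat 67 or topotecan/oxaliplatin rat 50).

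Members of the chaperone and respiratory chain lists that passed were lower when topotecan came first. Over all genes 4.99% were higher and 6.02% lower at an adjusted p under 0.01. Of 29 heat shock and chaperone genes 0 were higher and 9 lower, with a median of -0.48: among them the mitochondrial chaperonins Hspd1 (-0.66 ± 0.13) and Hspe1 (-0.74) and the cytosolic chaperonin subunits Tcp1 (-0.73 ± 0.12), Cct3 (-0.56), Cct5 (-0.48), Cct7 (-0.41) and Cct8 (-0.72). Tcp1 had a change of -0.73 in topotecan/oxaliplatin rats and of 0.00 in oxaliplatin/topotecan rats. Of 78 respiratory chain genes 0 were higher and 16 lower, with a median of -0.28, and none was over 2-fold, the largest being Ndufaf4, an assembly factor of complex I, at -0.71. The counts depended on the scaling: with arrays centred on their medians, 14 chaperone and 31 respiratory chain genes were lower, and with the code column pair as a block 9 respiratory chain genes were. Splicing factor genes gave 0 higher and 6 lower of 98, a share near the 6.02% of all genes (13 lower with centred arrays, 3 with the block). No cytosolic ribosomal protein gene passed (0 of 43, median -0.10), and 1 did without NaCl/D5W rat 7. In the rats of code columns 3 and 4 alone, with 2 rats in each group, 0 chaperone genes and 0 respiratory chain genes passed, with medians of -0.50 and -0.20.

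**Figure D4:**
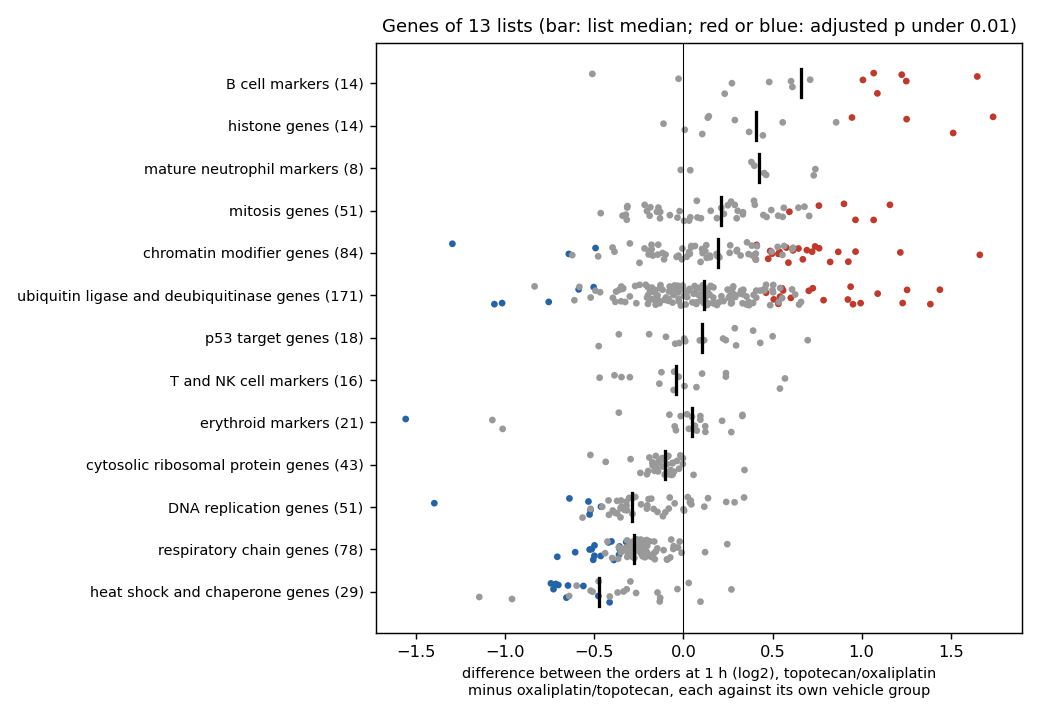
Difference between the orders at 1 h (x axis, log2) of every measured gene in 13 lists (rows, number of genes in brackets), with the list median as a black bar and genes at an adjusted p under 0.01 in red (higher) or blue (lower). B cell markers had the highest median of these lists with 0.66, and heat shock and chaperone genes the lowest with -0.48.

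Genes of transcription elongation control gave 5 higher and 5 lower of 33, where 4.99% of all genes were higher and 6.02% lower at an adjusted p under 0.01. The higher ones were the kinase Cdk13 (0.90), the elongation factors Aff1 (0.65), Aff4 (0.71), Ell (0.46) and Supt5h (0.63), and the lower ones were subunits of RNA polymerase II, Polr2d (-0.40), Polr2f (-0.82), Polr2h (-0.51), Polr2i (-0.50) and Polr2j (-0.41). No topoisomerase gene passed (0 of 5), and 1 did, lower, without topotecan/oxaliplatin rat 50 or oxaliplatin/topotecan rat 67 and under both other scalings. Of 38 immediate early genes 4 were higher, Dusp5 and Zfp36 with values of 1.02 and 0.71, and Btg1 and Klf2 with 0.42 and 0.88, and the count was 2 without D5W/NaCl rat 14, NaCl/D5W rat 2 or oxaliplatin/topotecan rat 68. TGF-beta and matricellular genes gave 2 higher of 21, Tgfbr1 and Smad4, and 5 passing without oxaliplatin/topotecan rat 67. A second probe set gave 0.56 for Tgfbr1 (adjusted p = 0.0699 in limma) and 0.92 for Smad4 (adjusted p = 0.00112). Interferon response genes (0 of 39) and cytokine and chemokine genes (0 of 40) held none.

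None of 18 measured p53 targets passed between the orders, and 1 did without oxaliplatin/topotecan rat 67. Their median change was 1.72 in topotecan/oxaliplatin rats and 1.59 in oxaliplatin/topotecan rats, and the median difference of differences was 0.10. Cdkn1a, an inhibitor of cyclin-dependent kinases, had risen by 3.04 in topotecan/oxaliplatin rats and by 3.14 in oxaliplatin/topotecan rats (difference -0.10 ± 0.35, SE). Mdm2, the ubiquitin ligase of p53, had risen by 1.92 in topotecan/oxaliplatin rats and by 1.49 in oxaliplatin/topotecan rats (difference 0.43 ± 0.21), and Bbc3, a promoter of apoptosis, by 2.19 in topotecan/oxaliplatin rats and by 2.07 in oxaliplatin/topotecan rats (difference 0.12 ± 0.17). A difference of the size of these errors was not detectable with 4 rats per group.

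Topotecan alone offers the same comparison of order in rats that are not among the 16, since topotecan/D5W and D5W/topotecan rats had the drug first or second with D5W as the other infusion. That direct comparison called 158 probe sets, 122 higher (0.974%) and 36 lower (0.287%) in topotecan/D5W rats. Of the 144 probe sets higher in the combination, 143 had the same sign with topotecan alone and 58 were called, with a median of 0.92. Of the 46 lower ones, 44 had the same sign and 24 were called, with a median of -1.05. St8sia4 differed by 1.66, H4f3 by 1.65, Arid4b by 1.45, Cmss1 by -1.64 and Vps13b by -1.42. Of the B cell markers, Ms4a1 differed by 0.97, Foxp1 by 0.80, Pou2af1 by 0.48, Cd79b by 0.25 and Fcrla by 0.25. The median of the 14 measured B cell markers was 0.28. The 75 genes called higher with topotecan alone had a median length of 105.4 kb and the 25 called lower one of 300.8 kb, with 17 of the 25 over 200 kb. These 2 groups lay in different code columns and were assigned to different analysis batches in the study's methods. Code column, any effect of batch and order therefore cannot be told apart in the comparison of topotecan alone.

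The order difference in the combination was then set against that of topotecan alone in 1 contrast, in which the vehicle groups cancel. No probe set passed (0 called by limma, and 572 at an unadjusted p under 0.05), with a median standard error of 0.18 on the log2 scale. Cd79b gave 0.67 ± 0.27 (adjusted p = 0.991), Ccr1 0.67 ± 0.31 and Foxp1 0.04 ± 0.17. With oxaliplatin alone, given second (NaCl/oxaliplatin) against first (oxaliplatin/NaCl), the probe sets of the combination had medians of -0.01 for the 144 and 0.17 for the 46, and none of the 190 was called (0.016% of all probe sets were). That comparison was direct, without vehicle rats, and its groups also lay in different code columns and were assigned to different analysis batches.

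**Figure D5:**
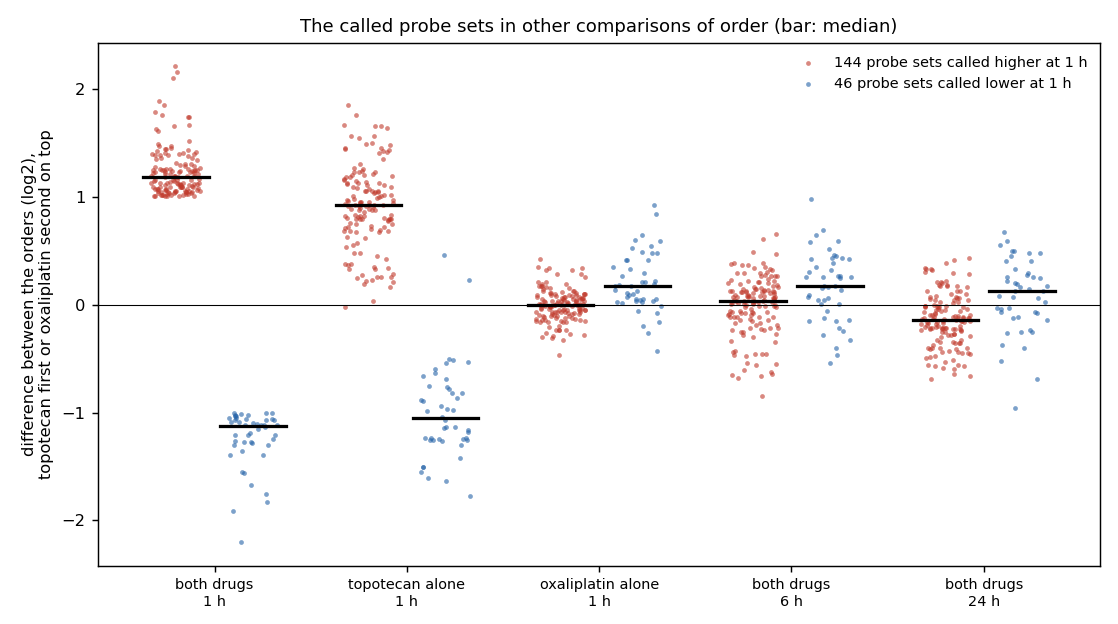
Log2 difference between the orders (y axis) of the 144 probe sets called higher (red) and the 46 called lower (blue) in the combination at 1 h, shown for both drugs at 1 h, topotecan alone and oxaliplatin alone at 1 h, and both drugs at 6 h and 24 h (x axis). Values for topotecan alone and oxaliplatin alone are direct differences of 2 groups, while those for both drugs are differences of differences. The medians (bars) are 0.92 and -1.05 with topotecan alone, and lie between -0.14 and 0.17 in the 3 comparisons to its right.

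None of these probe sets was called between the orders at later times. At 6 h, in other rats of the same 4 treatments, the 144 probe sets had a median difference of 0.03 and the 46 one of 0.17, and none of the 190 was called or differed over 2-fold. At 24 h the medians were -0.14 and 0.13. That comparison had 15 arrays, against 16 at 6 h, and its sample codes begin with another number than those of 1 h and 6 h. Over all probe sets 1 (0.00798%) was called at 6 h (Lpin1, an enzyme of lipid synthesis, at 1.06) and 0 (0%) at 24 h by limma, with 1081 and 1190 at an unadjusted p under 0.05. St8sia4 stood at -0.46 ± 0.27 at 6 h, H4f3 at 0.05 ± 0.38, Ms4a1 at 0.07 ± 0.32, Ankrd44 at 0.30 ± 0.22 and Vps13b at 0.26 ± 0.21. The change of the order difference from 1 h to 6 h was tested as well and called 191 probe sets, 95 higher (0.758%) and 96 lower (0.766%). Among them were 65 of the 144 and 30 of the 46 in the direction of the 1 h difference, whose rats this contrast shares.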

How the data were processed

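Femur bone marrow RNA of 93 rats was hybridised to Affymetrix rat genome arrays. The deposited log2 values were made by the authors with RMA, which corrects the background, quantile-normalizes the arrays and summarises probes by median polish, followed by a filter on the agreement of the probes of a probe set (pvac). Of 12560 probe sets, 28 controls were left out and 12532 tested. Symbols came from the platform annotation: 10002 probe sets had 1 symbol, 292 several and 2238 none, and 9983 were matched to RefSeq. Per the methods, 1 array outside these 16 had been left out as an outlier before.

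All 93 arrays were fitted with 24 group means in limma 3.58.1 (R 4.3.3, eBayes), and p-values were adjusted by the Benjamini-Hochberg method over all probe sets. Groups came from the sample labels, and each rat gave 1 array. Genes were named by rule: the 15 largest differences in each direction among genes that were called and whose combination rats did not overlap, with St8sia4, H4f3, Ankrd44 and Marchf1, and members of the gene lists, called ones first. Rpap2, Abcg1, Lpin1 and genes of the lists that did not pass but are shown with values were chosen after their values were seen. The members and lists were chosen with earlier results of these data known. The fit was tested on simulated data. Alternatives in scaling, arrays, code columns, variance prior, vehicle groups, thresholds, dim probe sets and rats are given at the end. Those on gene length were chosen after seeing the data.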

Additional observations from a re-analysis of the deposited data

Results flagged for a closer look

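In 7 of 120 sets of 4 rats (30 genes in 4 groups), 1 rat lay apart from the other 3 of its group by more than Dixon's limit on the gap over the range. Chance alone gives about 1 in 20 such sets. In topotecan/oxaliplatin rats, Pola1 was at 6.6017 in rat 55 with the others between 6.1575 and 6.1829, and Plcb4 at 6.5942 in rat 49 with the others between 6.8720 and 6.9149. In oxaliplatin/topotecan rats, Faf1 was at 9.6834 in rat 68 with the others between 9.3316 and 9.3625. Among vehicle rats, Pxmp4 was at 8.7625 in NaCl/D5W rat 2 (others 9.2326 to 9.2998) and Vegfc at 8.3915 in NaCl/D5W rat 7 (others 8.6144 to 8.6501). In D5W/NaCl rat 20, H2ac25 was at 8.5399 (others 8.3454 to 8.3569) and Ttc27 at 8.9337 (others 9.3401 to 9.3877).

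The difference between the orders itself differed between 1 h and 6 h in 191 probe sets, by a limma contrast of the 2 times.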

How the results depend on the processing

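The count of called probe sets for the order at 1 h was 139 to 211 over scaling, array sets, code columns, variance prior, pooled vehicle groups and the removal of dim probe sets, against 190. It was 1234 at an adjusted p under 0.01 with no fold, 1146 at an adjusted p under 0.05 with a fold above 1.5, and 212 at that adjusted p with a fold above 2. The direct comparison gave 98 after a second quantile normalization, against 150. Leaving out 1 rat gave 162 to 259 for the order, 147 to 245 for 1 h minus 6 h, and 0 for the 2 contrasts that called none. No alternative reversed a gene. Pooling the vehicle groups gave the same values as the direct comparison. Of 46 genes followed, 15 lost their call with the vehicle groups pooled, 12 and 20 with 2 rats per group (code columns 1 and 2, and 3 and 4), 9 with the 16 arrays alone and 5 with the code column pair as a block. Dusp5 and Ebf1 each lost it without 1 of 7 rats and Ube2e2 without 1 of 5. No paired analysis was possible because no 2 groups share an animal number. With 4 rats per group, small differences could not be resolved.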
